A study of Glycine max with 2 samples.

Results

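The 100 soybean loci described here are those at which 2 alternative transcript models differed most between a hairless line and its hairy isoline. The transcripts of young shoot tips were sequenced in Clark glabrous (CG), a hairless mutant that carries the dominant P1 allele, and in Clark standard (CS), the wild type with trichomes. The CG isoline was made by bringing P1 from a glabrous line into Clark through 6 generations of backcrossing, so that segments of the donor other than P1 can still be present. Plants of both lines grew in a greenhouse for about 4 weeks without any treatment, and each line has 1 library, made from the shoot tips of several plants. The RPKM values work back to totals of 147273809 alignments in CG and 152791817 in CS. The study reports fewer aligned reads than this, with more of them in CG than in CS. With 1 library per line there is no replicate check, no SD over samples and no p-value for any difference given here, and a difference between the lines cannot be told apart from a difference between these pools of plants.

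The authors aligned the reads to cDNA models predicted from the genome of cultivar Williams 82. A model is named by its locus and a suffix, so that Glyma02g18320.1 and Glyma02g18320.2 are alternative transcripts predicted at a single locus on chromosome 2. In the text they are called model 1 and model 2. The values are RPKM, the alignments on a model scaled to its length and to a total for the library. A read that fits several models was counted on each of them, and the totals that the values work back to are numbers of alignments, which exceed the numbers of reads. Of the 69145 loci in the files, 6747 have both a model 1 and a model 2, and at 6001 of these each model reached a mean RPKM of 1 or more over both lines. For each model the log2 CG/CS ratio was taken after adding 0.1 RPKM to both values, which understates the change of low values. The 100 loci are those with the largest absolute difference between the ratio of model 2 and the ratio of model 1. A positive difference means that model 2 was higher relative to model 1 in CG than in CS. The loci were thus selected on the RPKM values reported here, which are given as a description and support nothing about the loci. Multiplying a whole library by a constant cancels in this difference, apart from the added 0.1 RPKM.

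A plant gene can give rise to several mRNAs through alternative splice sites, skipped exons, retained introns, or different starts and ends of transcription. Intron retention is the most common form of alternative splicing in plants, and many such transcripts hold an early stop codon that can send them to nonsense-mediated decay. Others encode proteins with another end, another domain or another place in the cell. Trichomes, the plant hairs whose non-glandular form CG lacks, are outgrowths of the shoot epidermis, and in Arabidopsis they are specified by a complex of MYB, bHLH and WD40 proteins. None of the 69145 loci matched an identifier in the RefSeq gene table used here, and 0 of the 100 loci appear in the supplementary tables of the study that were used here. The loci are therefore given by their Glyma numbers, with no name and no function, and lists by function were not made. The only gene looked at for the tissue was Glyma16g28030.1, which the study annotates as a chlorophyll a-b binding protein. It stood at 281 RPKM in CG and 1093 RPKM in CS. A single gene cannot show which tissue was sampled or that the pools of both lines match. In whole shoot tips, fewer cells of a type and less RNA per cell cannot be told apart.

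At nearly all of the 6001 loci the log2 ratios of model 1 and model 2 were close. A read that fits both models counts on both, which ties their ratios together. How far this accounts for the closeness was not tested. The median absolute difference between the ratios of model 2 and model 1 was 0.02 on the log2 scale. It was under 0.05 at 4862 loci (81.0%) and under 0.1 at 5586 loci (93.1%). The 100 loci ranged from 0.21 to 2.95 with a median of 0.28, so that most of them lay just beyond the bulk of the others. Only 10 of the 100 had a difference of 1 or more, which means a 2-fold change of model 2 relative to model 1. These 10 were 0.167% of all 6001 loci, and every locus that reached this size is by the rule among the 100. A further 7 loci lay from 0.5 to under 1, 25 from 0.3 to under 0.5 and 58 from 0.2 to under 0.3.

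**Figure D1:**
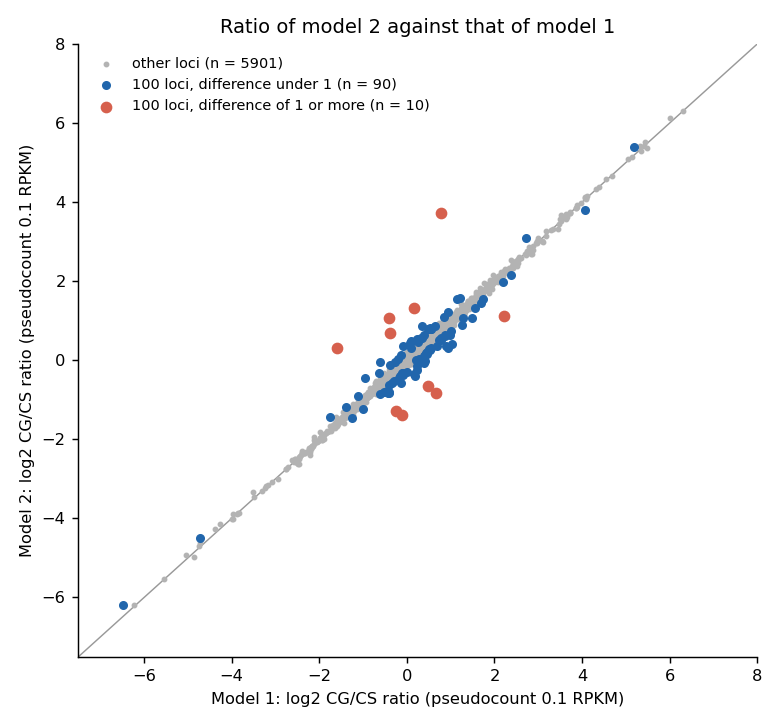
Log2 CG/CS ratio of model 1 (x axis) and of model 2 (y axis) at each of 6001 loci, with 0.1 RPKM added to each value. The grey points of 5901 other loci lie along the line of equal ratios, 90 of the 100 loci (blue) lie close beside it, and the 10 loci with a difference of 1 or more (red) stand away from it.

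The difference was positive at 39 of the 100 loci and negative at 61, and it was positive at 50.6% of all 6001 loci. The majority turned with the limit on level, since of 100 loci chosen again at a mean RPKM of at least 10 the difference was positive at 62. Of the 10 loci with a difference of 1 or more, 5 were positive and 5 negative.

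The largest difference was at Glyma02g18320 on chromosome 2. Its model 2 had 4.49 RPKM in CG and 0.246 RPKM in CS, while its model 1 had 20.3 RPKM in CG and 11.7 RPKM in CS. Both models were thus higher in CG, but model 2 far more so, with log2 CG/CS ratios of 3.73 for model 2 and 0.78 for model 1. The deposited values were worked back to alignments, the smallest whole numbers that give them, and those behind model 2 were 141 in CG and 8 in CS. True numbers can be multiples of these, which would narrow the intervals. The model 2 share of the summed RPKM of both models was 18.2% in CG (exact 95% interval 15.7% to 20.8%) and 2.05% in CS (0.895% to 3.97%). These intervals, and all others given here, cover counting error only and treat the alignments on model 1 and model 2 as independent, which they are not where a read lies on both. The size of this difference moved with the added constant, being 2.95 as chosen, 3.40 without any constant and 1.40 with 1 RPKM added.

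At Glyma08g26280 on chromosome 8 the difference came from model 1. Model 1 had 1.99 RPKM in CG and 6.19 RPKM in CS, and model 2 had 8.95 RPKM in CG and 7.15 RPKM in CS. The log2 ratios were -1.59 for model 1 and 0.32 for model 2, on opposite sides of an equal level in the deposited values. The share of model 2 was 81.8% in CG (79.7% to 83.8%) and 53.6% in CS (51.4% to 55.8%). Model 2 had 1525 more alignments than model 1 in CG and 712 more in CS. Since a shared read counts on both models, at least this many lay on model 2 alone if the recovered numbers are the true ones.

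Glyma02g44000, also on chromosome 2, had a model 2 with low RPKM. This model had 2.04 RPKM in CG and 0.911 RPKM in CS, against 7.54 RPKM in CG and 10.1 RPKM in CS for model 1. The models therefore went opposite ways, with model 2 higher and model 1 lower in CG, and the share of model 2 was 21.3% in CG and 8.26% in CS. The alignments behind model 2 were 209 in CG and 97 in CS.

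The other 2 of these 5 loci had smaller differences. At Glyma09g16060 on chromosome 9, model 2 had 2.06 RPKM in CG and 0.762 RPKM in CS, while model 1 was close in both lines at 10.4 RPKM in CG and 9.17 RPKM in CS. At Glyma07g38440 on chromosome 7, model 2 had 2.04 RPKM in CG and 1.22 RPKM in CS, and model 1 had 0.980 RPKM in CG and 1.32 RPKM in CS. Here model 2 had the higher RPKM in CG and model 1 the higher RPKM in CS.

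Of the 5 loci with a difference of -1 or below, Glyma14g29160 on chromosome 14 had the largest, -1.49. Its model 2 had 0.923 RPKM in CG and 1.71 RPKM in CS, and its model 1 had 24.3 RPKM in CG and 15.3 RPKM in CS. Model 2, the minor one, was lower and model 1, the major one, higher in CG, and the share of model 2 was 3.66% in CG (2.75% to 4.75%) and 10.1% in CS (8.30% to 12.04%). The alignments behind model 2 were few, with 53 in CG and 102 in CS.

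Glyma06g07110 on chromosome 6 was the reverse case, with an abundant model 2. Model 2 had 73.5 RPKM in CG and 190.6 RPKM in CS, from 14615 alignments in CG and 39316 in CS. Model 1 had only 2.50 RPKM in CG and 2.72 RPKM in CS. The strong difference of model 2 between the lines was thus absent from model 1, whose log2 ratio was -0.12 against -1.37 for model 2. Model 2 made up 96.7% of the summed RPKM in CG and 98.6% in CS.

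At Glyma13g38260 on chromosome 13, model 1 and model 2 went opposite ways, with similar levels in CG but not in CS. Model 2 had 4.91 RPKM in CG and 7.74 RPKM in CS, and model 1 had 4.33 RPKM in CG and 3.08 RPKM in CS. The share of model 2 was 53.1% in CG (51.3% to 54.9%) and 71.5% in CS (70.0% to 73.0%). This locus had at least 973 alignments behind each of its 4 values, which makes it among the better measured of the 10. Model 2 exceeded model 1 by 376 alignments in CG and by 1797 in CS.

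Both models of Glyma14g32910 on chromosome 14 were at least 2-fold higher in CG, model 1 more than model 2. Model 1 had 2.66 RPKM in CG and 0.492 RPKM in CS, with 34 alignments behind the CS value, and model 2 had 1.92 RPKM in CG and 0.828 RPKM in CS. At Glyma03g05650 on chromosome 3, model 2 had 1.05 RPKM in CG and 2.70 RPKM in CS, while model 1 differed less, with 1.22 RPKM in CG and 1.47 RPKM in CS. At both of these loci model 1 was the higher model per length in CG and model 2 the higher in CS.

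**Figure D2:**
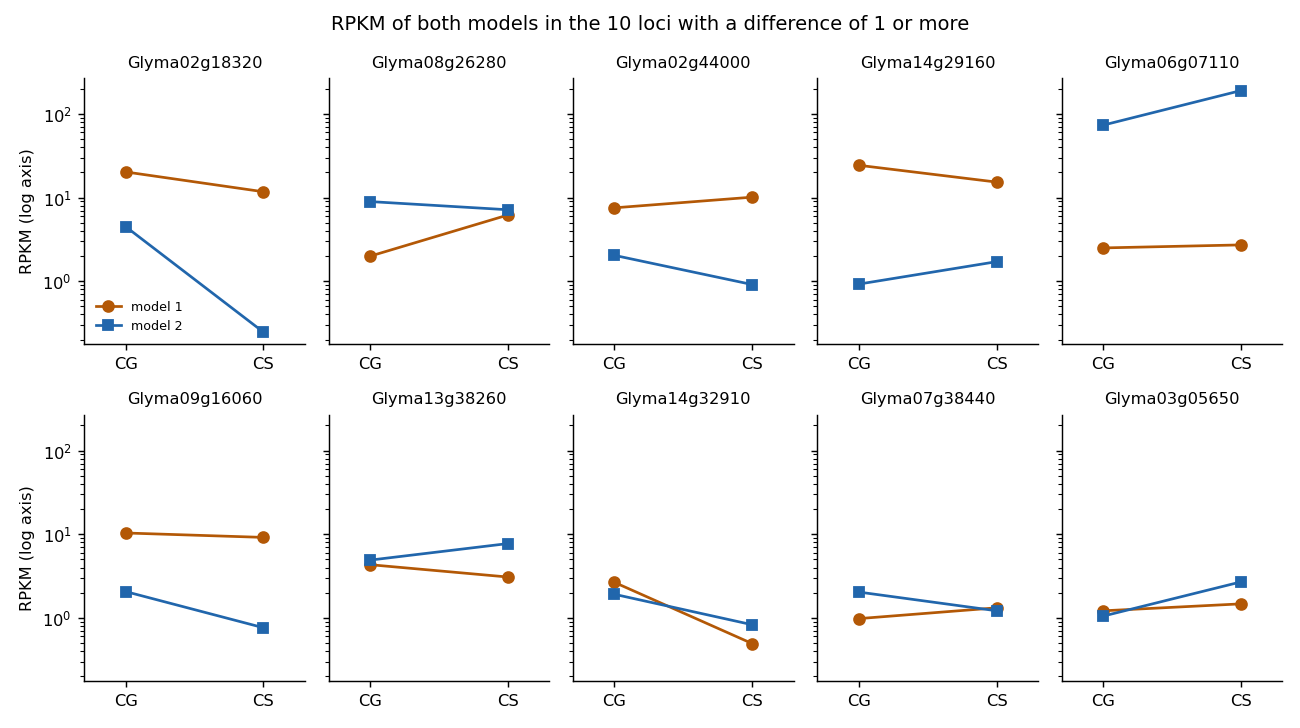
RPKM on a log axis of model 1 (orange circles) and model 2 (blue squares) in CG and CS, at the 10 loci with a difference of 1 or more, in the order of its size. The lines of model 1 and model 2 run apart at each locus, and they cross at Glyma14g32910, Glyma07g38440 and Glyma03g05650.

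The loci that followed had differences well under 2-fold. Toward model 2 in CG, the next 7 had differences from 0.37 to 0.56. Glyma18g47800 on chromosome 18, with 0.56, had 1.96 RPKM in CG and 2.03 RPKM in CS for model 2, and 2.27 RPKM in CG and 3.52 RPKM in CS for model 1. It had as few as 68 alignments behind a value, and its interval held 0 (-0.09 to 1.25). Intervals of a difference, here and below, are for its value without the added constant. Glyma02g09030 on chromosome 2 was better measured, with a difference of 0.52 and a counting interval of 0.39 to 0.66. Its model 2 had 12.4 RPKM in CG and 6.78 RPKM in CS, and its model 1 had 9.85 RPKM in CG and 7.79 RPKM in CS. In CG model 2 had 700 more alignments than model 1, and in CS model 1 had 102 more than model 2, so that each model took reads that the other did not, if the recovered numbers are the true ones.

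Glyma12g04710 on chromosome 12 had far more alignments, at least 14276 behind each value. Its model 2 had 165.9 RPKM in CG and 118.7 RPKM in CS, and its model 1 had 100.02 RPKM in CG and 93.2 RPKM in CS. The share of model 2 was 62.4% in CG (61.9% to 62.9%) and 56.0% in CS (55.4% to 56.6%). This is a small difference, 0.38 on the log2 scale, but counting error is smaller still (0.34 to 0.43).

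Glyma18g38660 on chromosome 18, with a difference of 0.50, had 1.60 RPKM in CG and 2.24 RPKM in CS for model 2, and 1.48 RPKM in CG and 2.97 RPKM in CS for model 1. Both of its models were thus lower in CG, model 1 more than model 2. At Glyma04g07500 on chromosome 4, with 0.46, model 2 had 1.99 RPKM in CG and 1.53 RPKM in CS, and model 1 had 2.28 RPKM in CG and 2.44 RPKM in CS. Glyma10g32900 on chromosome 10, with 0.40, was more than 2-fold higher in CG in both models. Its model 2 had 4.32 RPKM in CG and 1.42 RPKM in CS, and its model 1 had 2.65 RPKM in CG and 1.15 RPKM in CS.

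Glyma07g05420 differed mainly in overall level, and it is the only 1 of the 24 loci with the largest differences (12 in each direction) whose difference changed sign with the constant. Its model 1 had 3.91 RPKM in CG and 0.506 RPKM in CS, and its model 2 had 2.57 RPKM in CG and 0.211 RPKM in CS. With 1 RPKM added in place of 0.1 its difference was -0.15.

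Toward model 1 in CG, the next 7 loci had differences from -0.64 to -0.46. Glyma11g38140 on chromosome 11 was the best measured of them, with a difference of -0.61 and an interval of -0.79 to -0.43. Its model 1 had 14.8 RPKM in CG and 7.20 RPKM in CS, a 2-fold difference, while its model 2 had 3.72 RPKM in CG and 2.75 RPKM in CS. Glyma15g08670 on chromosome 15 had 2.78 RPKM in CG and 1.39 RPKM in CS for model 1, against 2.20 RPKM in CG and 1.75 RPKM in CS for model 2. At both of these loci model 1 and model 2 were higher in CG and model 1 differed more. Glyma10g41740 on chromosome 10 was alike in this, with 2.52 RPKM in CG and 1.31 RPKM in CS for model 1, and 3.84 RPKM in CG and 2.95 RPKM in CS for model 2.

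At the other 4 of these loci model 1 was higher and model 2 lower in CG than in CS in the deposited values. Glyma10g35740 had 3.44 RPKM in CG and 3.01 RPKM in CS for model 1, and 2.73 RPKM in CG and 3.63 RPKM in CS for model 2. Glyma02g43490 had 6.43 RPKM in CG and 5.72 RPKM in CS for model 1, and 2.06 RPKM in CG and 2.64 RPKM in CS for model 2. Single models at these loci differed by less than 1.5-fold, and in the deposited values their opposite directions add up. Glyma07g35500 had 1.64 RPKM in CG and 1.38 RPKM in CS for model 1, and 3.40 RPKM in CG and 4.05 RPKM in CS for model 2. Glyma03g04530 had 2.08 RPKM in CG and 1.57 RPKM in CS for model 1, and 2.61 RPKM in CG and 2.75 RPKM in CS for model 2. These directions depend on the scaling. At Glyma10g35740, Glyma02g43490 and Glyma07g35500 the log2 ratio of model 1 was 0.19, 0.17 and 0.23. The median over all models with a mean of 1 RPKM or more was higher, at 0.34. Scaled to that median, both models of these loci are lower in CG, while Glyma03g04530 keeps its opposite directions. At all 7 loci the interval lay below 0.

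At 17 of the 100 loci the models lay on opposite sides of an equal level, against 1.83% of all 6001 loci. Both this count and the next come from the values that chose the loci. No locus of the 100 had model 1 and model 2 going opposite ways by 2-fold or more each. The widest splits of the 17 were at Glyma08g26280, Glyma02g44000 and Glyma14g29160. Unlike the difference, the side on which a model lies depends on the scaling, and the 17 were counted on the deposited values only. At Glyma08g26280 the log2 ratio of model 2, 0.32, was below the median of 0.34 over all models with a mean of 1 RPKM or more. Scaled to that median, both of its models are lower in CG.

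The model with the higher RPKM was not the same in both lines at 13 of the 100 loci, against 4.1% of all 6001. At 10 of these model 1 was the higher model in CG and model 2 the higher in CS, and at 3, Glyma07g38440, Glyma02g09030 and Glyma18g38660, it was the other way round. Most of these changes of order were narrow. Glyma10g31240, for example, had 37.4 RPKM for model 1 and 32.6 RPKM for model 2 in CG, and 2.15 RPKM for model 1 and 2.27 RPKM for model 2 in CS. The share of model 2 differed between the lines by 10 percentage points or more at 10 of the 100 loci and at 0 of the other 5901, and by 5 points or more at 41 of the 100 loci and at 1 of the others. These counts too come from the values that chose the loci. Over the 100 loci the median share of model 2 was 46.4% in CG and 47.8% in CS. Since a shared read counts on both models, the shares and the order of the models describe RPKM and are not proportions of transcripts.

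**Figure D3:**
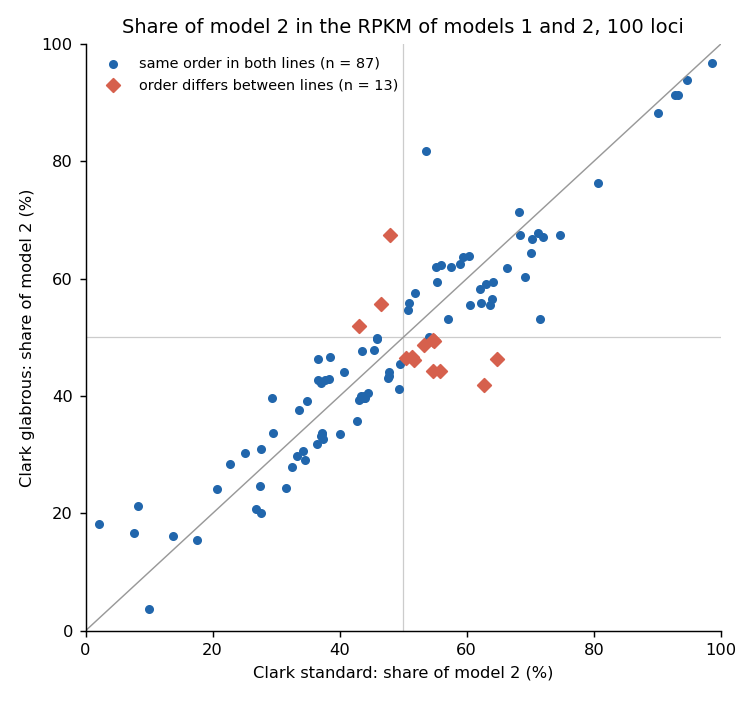
Share of model 2 in the summed RPKM of model 1 and model 2 in CG (y axis, percent) and CS (x axis, percent) at the 100 loci. Most points lie within a few percentage points of the line of equal shares, and the 13 loci whose order of models differs between the lines (red diamonds) lie above 50% in only 1 of the lines.

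A difference between models does not mean that the locus as a whole was equal in both lines. At 19 of the 100 loci both models were at least 2-fold apart between the lines, against 13.2% of all 6001. Both were higher in CG at 13 loci (against 8.52% of all 6001) and higher in CS at 6 loci (against 4.68%). At 12 loci only 1 of the models was, against 1% of all 6001 loci, and at 69 loci neither was. The count of 12 is favoured by the rule, which chose loci whose models differ in ratio. Model 1 was at least 2-fold higher in CG at 16 loci (against 8.9% of all 6001) and in CS at 8 loci (against 4.8%). Model 2 was at least 2-fold higher in CG at 18 loci (against 8.88% of all 6001) and in CS at 8 loci (against 4.82%). The median log2 ratio was 0.32 for model 1 and 0.26 for model 2, against 0.30 for both models over the other 5901 loci. Unlike the differences between models, these counts depend on the scaling, since the median log2 CG/CS ratio was 0.34 over the 43753 models of any locus that reached a mean of 1 RPKM. With the CG values multiplied by 0.788 to bring this median to 0, 21 models of the 100 loci were at least 2-fold higher in CG and 25 in CS, in place of 34 and 16.

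Of the 4 loci with the largest overall differences, 3 had 14 or fewer alignments behind a value in the lower line. Glyma16g10880 on chromosome 16 had 0.195 RPKM in CG and 26.1 RPKM in CS for model 1, and 0.178 RPKM in CG and 20.2 RPKM in CS for model 2. Glyma13g28680 on chromosome 13 had 0.0900 RPKM in CG and 4.89 RPKM in CS for model 1, and 0.0829 RPKM in CG and 4.06 RPKM in CS for model 2. Higher in CG was Glyma01g42500 on chromosome 1, with 10.4 RPKM in CG and 0.190 RPKM in CS for model 1, and 21.6 RPKM in CG and 0.412 RPKM in CS for model 2. Its difference between models, 0.22, was the only one of the 100 to change sign without the added constant, to -0.07. The fourth, Glyma10g31240, was higher in CG by log2 ratios of 4.06 for model 1 and 3.79 for model 2, with at least 341 alignments behind each value.

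Model 2 had the higher mean RPKM at 42 of the 100 loci, against 34.8% of all 6001. At 11 of the 100 loci the models were at least 5-fold apart in mean RPKM, as at 2 of the other 5901. In 5 of these 11 model 2 was the higher model. Besides Glyma06g07110 these were Glyma13g11820, Glyma04g26800, Glyma20g31140 and Glyma13g11940, each with a small negative difference from -0.39 to -0.23. Glyma13g11820.2 had 128.5 RPKM in CG and 223.7 RPKM in CS, against 12.2 RPKM in CG and 16.3 RPKM in CS for model 1. Glyma13g11940.2 had 200.7 RPKM in CG and 263.0 RPKM in CS, against 13.1 RPKM in CG and 14.7 RPKM in CS for model 1. Further models of these 2 loci share reads across loci, since Glyma13g11820.3, Glyma13g11940.5, Glyma13g11940.7 and Glyma13g11810.3 had exactly the same values, 122.9 RPKM in CG and 210.0 RPKM in CS. The only other model of the 100 loci with values equal to those at another locus was Glyma14g34870.2, which matched Glyma02g43310.1 at 14.9 RPKM in CG and 9.53 RPKM in CS. Values of these models cannot be assigned to a single locus. How far reads from elsewhere in the genome bear on the other loci was not tested.

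Models beyond model 2 were not used to choose the loci, although they share reads with model 1 and model 2. Of the 100 loci, 37 have 3 or more models, against 29% of all 6001, and these hold 56 further models. In log2 ratio 29 of the 56 lay nearer to model 1 and 27 nearer to model 2. The 27 include models 3 to 8 of Glyma13g11940, which followed neither. Their ratios, from -0.80 to -0.62, lay beyond the -0.39 of model 2 and the -0.16 of model 1. At Glyma02g44000 model 3, with 5.75 RPKM in CG and 7.16 RPKM in CS, had a log2 ratio of -0.31 and thus followed model 1, which left model 2 alone in being higher in CG. At Glyma06g07110 models 4 and 5 followed model 2, with 97.3 RPKM in CG and 257.0 RPKM in CS for model 4 and 59.5 RPKM in CG and 157.0 RPKM in CS for model 5, which left model 1 as the only measured model of this locus that was close in both lines. At Glyma10g35740 the models fell into 2 sets. There models 3 and 4 had log2 ratios of -0.36 each, near the -0.40 of model 2, and model 5 had 0.18, near the 0.19 of model 1.

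**Figure D4:**
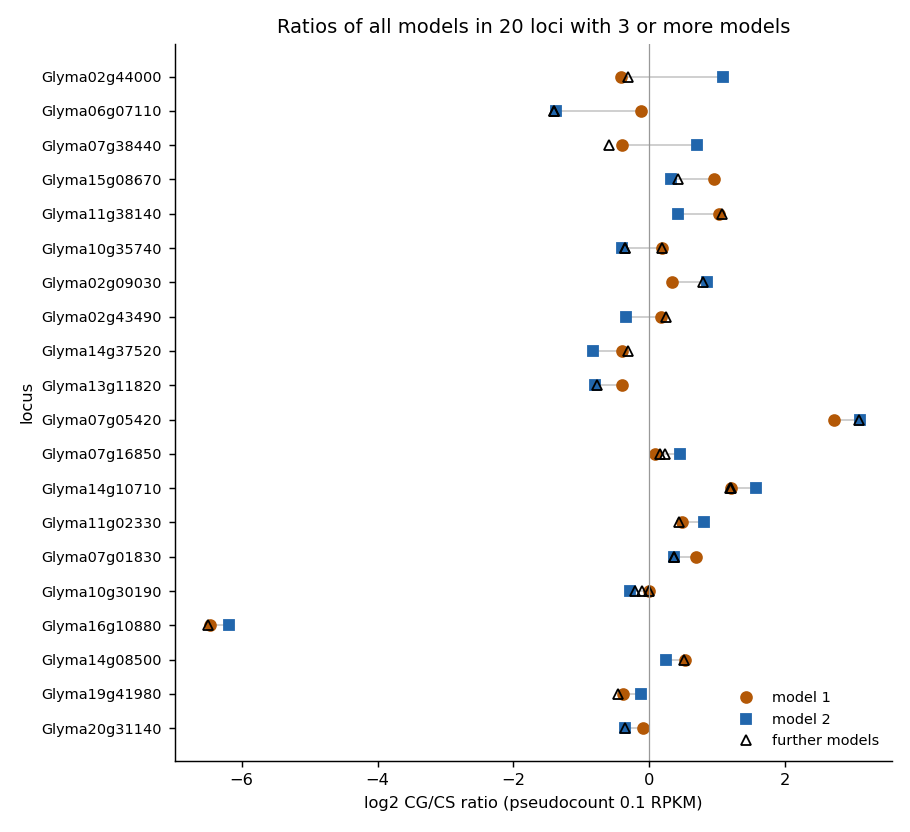
Log2 CG/CS ratio, with 0.1 RPKM added, of model 1 (orange circles), model 2 (blue squares) and all further models (open triangles) at the 20 loci with 3 or more models and the largest differences. The further model of Glyma02g44000 lies close to model 1, and those of Glyma06g07110 lie close to model 2.

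Whole alignments were found for both models at 98 of the 100 loci and at 5999 of the 6001. At 68 of the 98 the exact 95% interval of the difference, from the alignments of both models in both lines, lay clear of 0, and at 30 it held 0. All 10 loci with a difference of 1 or more were among the 68. Because the loci were chosen by the size of this difference, the intervals describe precision and are no test. For 22 of the 98 loci at least 1 of the 4 values rested on fewer than 100 alignments. Asking for 100 or more behind each value, a limit chosen after the values were seen, left 3 of the 10 loci with a difference of 1 or more. These were Glyma08g26280, Glyma06g07110 and Glyma13g38260. The recovered numbers are the smallest that fit, so other loci can reach this limit where the true numbers are multiples.

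**Figure D5:**
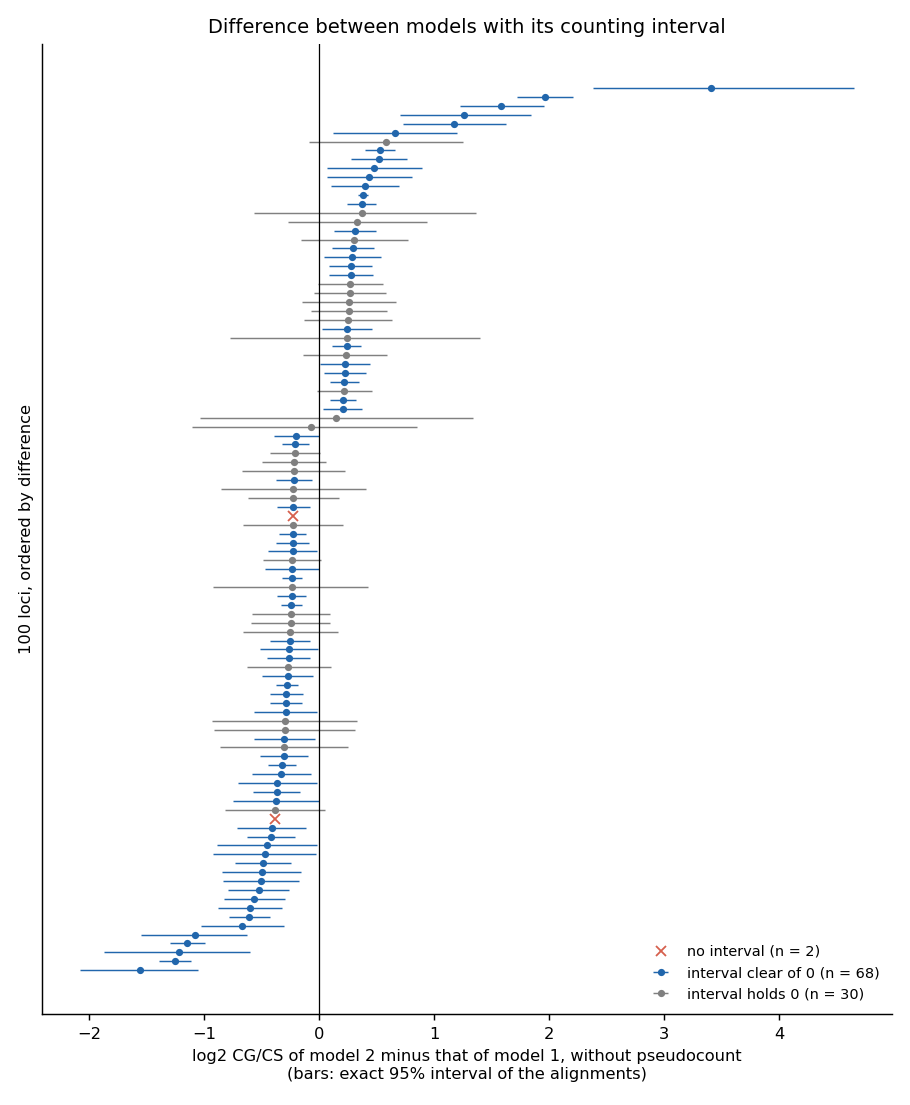
Difference between the log2 CG/CS ratios of model 2 and model 1 without added constant (x axis) for the 100 loci, ordered by its size, with exact 95% intervals from the alignments. Intervals of 68 loci (blue) lie clear of 0, those of 30 loci (grey) hold it, and 2 loci (crosses) have no interval.

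The 100 loci differed from the other 5901 in properties that bear on the precision of a ratio. The lower of the mean RPKM values of model 1 and model 2 had a median of 2.59 over the 100 loci and 7.55 over the others, and it was under 2 at 39 of the 100 loci and at 7.91% of the others. The smallest number of alignments behind a value had a median of 269.5 over the 100 loci and 1153 over the others. A counting SD of the difference, with the alignments on model 1 and model 2 taken as independent, had a median of 0.13 over the 100 loci and 0.07 over the others, in log2 units. Where reads lie on both models, this is not the true SD of the difference. How much of the choice of the loci comes from low counts was not tested.

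The models of the 100 loci were also less alike in level and in length. The median absolute log2 ratio of the mean RPKM of model 2 to that of model 1 was 0.61 over the 100 loci and 0.13 over the others. For the recovered lengths, which are the smallest that make the alignments whole and can be fractions of the true ones, it was 0.82 over the 100 loci and 0.21 over the others. Model 2 was the shorter at 66 of the 98 loci with recovered lengths (67.3%), and at 57.4% of the others, with the same reservation about the lengths.

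Every numbered chromosome held some of the 100 loci, from 2 on chromosomes 5 and 9 to 10 on chromosome 7, and 1 locus lay on an unplaced scaffold. As a share of the loci that could be chosen, which was 100 of 6001 in all, chromosome 18 came first of the numbered chromosomes with 5 of 92 (5.43%). Chromosome 8 came last with 3 of 467 (0.642%). Of the loci on chromosome 18, Glyma18g47800 and Glyma18g22170 had intervals that held 0, and the others did not. Chromosome 18 has few alternative models in these files, with a model 2 at 115 of its 4035 loci (2.85%) against 8.60% to 12.5% on the other numbered chromosomes. Glyma09g16060 and Glyma09g16090 were the only pair among the 100 within 10 loci of each other in the order of the Glyma numbers. Their differences had opposite signs, 1.15 and -0.40.

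The last locus taken, Glyma07g31270, had a difference of -0.21, and the next, Glyma13g19760, had one of -0.20. The 5 loci just inside the limit had absolute differences of about 0.21 and the 5 just outside of about 0.20, so the limit marks no step in the values.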

How the data were processed

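Shoot tip RNA of CG and CS was sequenced on an Illumina GAII, with 1 library per line. The authors aligned reads of 75 bases with Bowtie to predicted Glyma cDNA models, with at most 3 mismatches and 25 alignments per read, and deposited 1 RPKM value per model and library. The version of Bowtie is not given in the sources used here. RPKM are not counts, so no count test was used.

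Whole alignments were recovered as the smallest whole numbers and lengths (75 to 20000 bases) that give both RPKM values, to within 0.001 alignments plus 1e-08 of their number. The totals worked back from the deposited RPKM were 147273809 alignments in CG and 152791817 in CS. True numbers can be multiples. A count of 0 allows 3 alignments, or 0.0204 RPKM in CG and 0.0196 RPKM in CS on 1000 bases. Intervals are Clopper-Pearson for shares, rescaled by length, and exact conditional for differences without the added constant, at 95%.

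The members, lists and alternatives were chosen with earlier results of these data known. Loci named are the 12 with the largest difference in each direction, and any with models 2-fold apart in opposite directions or named in the study's supplementary tables used here, of which there were 0; others were named after their values were seen. Alternatives were constants of 1 and 0.01 RPKM, mean RPKM limits of 10 and 0.1, loci with exactly 2 models, and scaling to the same median ratio or 75th percentile. The recovery of totals and alignments and the differences between models were tested on simulated data, in which no read was shared between models. Intervals and shares were not tested in this way. The computations ran in Python 3.11.15 with SciPy 1.17.1, NumPy 2.4.6 and pandas 2.3.3, and plots were drawn with matplotlib 3.10.9.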

Additional observations from a re-analysis of the deposited data

How the results depend on the processing

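No paired analysis was possible because the lines have 1 library each, which also means that none could be left out. The 10 loci with a difference of 1 or more became 5 with 1 RPKM added. There were 0 at a mean RPKM of 10 or more and 21 at a mean RPKM of at least 0.1. With at least 100 recovered alignments behind each value, a limit chosen after seeing the data, there were 3. Among 100 loci chosen again, differences above 0, at 39 as reported, were 62 at a mean RPKM of 10 or more. The smallest absolute difference, 0.205 as reported, was then 0.0802. Of the 100 loci, 11 were chosen again at a mean RPKM of 10 or more, 44 at 0.1 or more and 63 with exactly 2 models, since these limits change which loci can be chosen, but 98 under either scaling. Models going opposite ways by 2-fold or more each, 0 as reported, were 1 at a mean RPKM of 0.1 or more (Glyma15g07100). Models of the 100 loci that were 2-fold or more higher in CG, 34 as reported, were 21 after median-centring and 22 with the same 75th percentile, and those higher in CS, 16 as reported, were 25 under both. Of 72 values of the 24 named loci, 65 kept their direction and stayed within the counting interval, and 6 left the interval. Glyma07g05420 reversed to -0.15 with 1 RPKM added. The 6 also came with 1 RPKM added, all at loci among the 10 with a difference of 1 or more. The interval is for the difference without any constant, while all 72 values include one. Values with 0.01 RPKM added or median-centred could hardly leave it, since scaling nearly cancels and 0.01 RPKM is close to no constant.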
